A study of Homo sapiens with 6 samples.

Results

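The late response of JJN3 cells to WNK463 was read from 4 RNA-seq libraries, 2 from cells given WNK463 for 6 h and 2 from cells given the vehicle DMSO. JJN3 is a human multiple myeloma line, labelled wild type, and all libraries come from that 1 line. The series holds 6 libraries, and the other pair, from cells given WNK463 for 2 h, served here only to estimate the spread between replicates. Members of the comparison were the genes with at least 10 counts in 2 or more of the 4 libraries, which were 15209 of the 60728 genes in the table. The second largest count of a gene decided its place: 279 genes with exactly 10 there were just inside, and 289 with 9 just outside. The dose of WNK463 is given as 5 µM in the protocol of the samples and as 1 µM in the design of the series. Libraries of the DMSO group carry no collection time, so time in culture and treatment cannot be told apart. The labels do not say that replicates were separate cultures, and the p-values here measure only how far these libraries spread, which may be technical. In bulk RNA, fewer cells of a type and less RNA per cell cannot be told apart.

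WNK463 inhibits the WNK kinases, a small family named for an unusually placed catalytic lysine. WNK kinases sense chloride and cell volume and switch on the kinases OXSR1 and STK39, which stimulate the sodium-driven importers of chloride and inhibit the potassium-driven exporters of the SLC12 family. Myeloma cells resemble plasma cells, which secrete antibody through a large endoplasmic reticulum (ER), and their growth leans on transcription factors such as MYC and IRF4. Kinase activity, ion content and protein were not measured, and all values below are RNA.

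Counts assigned to genes totalled 18013790 to 21300013 per library. Levels are given in CPM (counts per 1000000 assigned counts) after TMM scaling, a share of the library that does not correct for gene length and cannot show a change in total RNA per cell. The correlation of log CPM was 0.985 within DMSO, 0.985 within 6 h and at most 0.968 between them. The DMSO replicates lay further apart than the 6 h replicates. Among 9089 tested genes averaging 10 CPM or more, 71 differed over 1.5-fold between the DMSO replicates and 26 between those at 6 h. The markers of plasma cells were present in every library, where the 10 defining genes together held 2484 and 2569 CPM in DMSO and 2270.3 and 2332 CPM at 6 h. Of 14 T and NK cell markers, 4 had no count in the 4 libraries (CD3D, CD3G, GNLY and KLRD1). The 2 that passed the filter, TRAC (log2 change 1.02) and GZMB (log2 change 4.75), were both called higher. GZMB passed it only through the 6 h libraries. The sum over all 14 was 2.87 and 2.64 CPM in DMSO and 4.58 and 6.56 CPM at 6 h. The 15 myeloid and erythroid markers held 5.00 to 9.26 CPM in sum, with 6 of them at 0, including CD68, LYZ, FCGR3A, ELANE and HBB. The 15 epithelial, stromal and endothelial markers held 104 and 106 CPM in DMSO and 126 and 132 CPM at 6 h, with KRT19, DCN, LUM and CDH5 at 0. Most of that sum was EPCAM, a gene of epithelial adhesion, at 91.9 and 89.8 CPM in DMSO and 101 and 107 CPM at 6 h, whose call (adjusted p = 0.0468) was lost with 5 of the 6 libraries left out in turn (up to adjusted p = 0.294, without 6 h replicate 2). Of the 5 markers of this set that passed the filter, CDH1 (4.75 and 5.09 CPM in DMSO and 9.89 and 10.8 CPM at 6 h) and PECAM1 (2.82 and 1.37 CPM in DMSO and 5.67 and 5.39 CPM at 6 h) were also called higher, and the log2 change of PECAM1, 1.42, was 2.01 without DMSO replicate 1. The part of these markers in the results below was not tested.

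Of the 15209 genes tested, 5731 were called, 37.7% of all, at a Benjamini-Hochberg adjusted p under 0.05 in edgeR's quasi-likelihood test. There were 2838 genes higher at 6 h (18.7% of those tested) and 2893 lower (19.0%). Most changes were small. The median log2 change was 0.54 among the genes called higher and -0.49 among those called lower, and 1300 and 1471 of them moved by less than 0.5 on the log2 scale. A log2 change of at least 1 was reached by 560 genes that rose and 406 that fell, and a change of at least 2 by 158 and 74. Both 6 h libraries lay outside the range of the DMSO libraries in 5713 called genes, and in 18 the groups overlapped. Nearly every called gene was thus apart, and how many uncalled genes were also apart was not counted. Groups that do not overlap therefore add little to a call, here and below. The spread used for a gene was set largely by all genes together, with 41.8 prior degrees of freedom against 3 of its own, so a very small p does not measure the spread of that gene's own replicates.

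**Figure D1:**
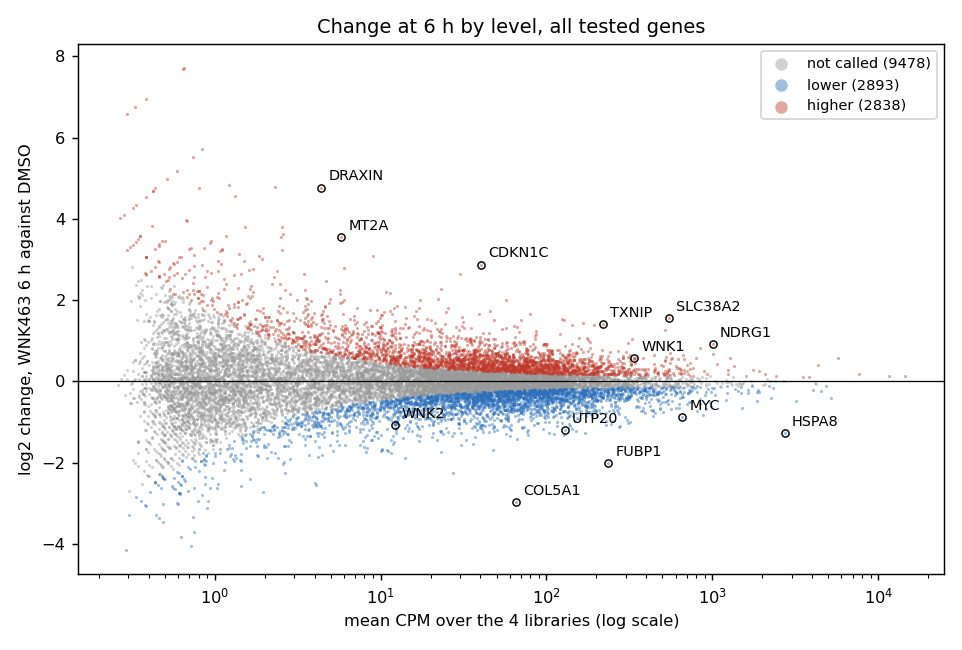
Log2 change at 6 h against DMSO (vertical axis, edgeR estimate) for the 15209 tested genes, by mean CPM over the 4 libraries (horizontal log axis), with genes called higher in red, called lower in blue and others in grey. The 2838 higher and 2893 lower genes spread over the whole range of levels, and DRAXIN, CDKN1C, COL5A1, FUBP1 and HSPA8 are among those labelled.

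The 15 largest rises all started from a mean under 10 CPM in the vehicle. They were taken from the called genes that averaged 4 CPM or more over the 4 libraries and whose groups did not overlap. DRAXIN, which encodes a secreted axon guidance protein, stood at 0.276 and 0.330 CPM in DMSO and 8.60 and 8.39 CPM at 6 h (log2 change 4.77 ± 0.452 SE, adjusted p = 7.87e-12). With under 10 counts in each DMSO library, DRAXIN passed the filter only through its 6 h libraries. The filter thus fixed its direction in advance, and its values are descriptions only. SPRR2A, a small proline-rich gene of squamous epithelia, was at 1.82 and 1.93 CPM in DMSO and 14.7 and 17.3 CPM at 6 h, 8.49-fold higher. LTF encodes the iron-binding protein lactoferrin and rose from 8.46 and 8.16 CPM to 48.8 and 55.8 CPM, a log2 change of 2.65 ± 0.142 SE. CDKN1C, the p57 inhibitor of cyclin-dependent kinases, was at 10.2 and 9.29 CPM in DMSO and 69.9 and 72.5 CPM at 6 h (log2 change 2.87 ± 0.128 SE, adjusted p = 1.52e-22). The gene lies on hg38 on chromosome 11 from 2883213 to 2885773. For each of the 4, both treated libraries were several times the higher DMSO library. TESK1, a kinase gene, rose from 9.45 and 6.41 to 36.4 and 40.4 CPM. SMIM14, which encodes a small membrane protein, rose from 8.35 and 8.96 to 36.6 and 34.7 CPM. B3GNT7 encodes a glycosyltransferase and rose from 1.77 and 2.17 to 9.27 and 9.61 CPM. The treated libraries of all 3 were over 3 times the higher vehicle library. The rest of the 15 largest rises were those of MT2A, CCL3, CCL5 and CXCL8, which come back below, and of MDGA1 (log2 change 2.46), FAT1 (log2 change 2.16), RALGPS2 (log2 change 2.03) and ZNF703 (log2 change 2.01).

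The largest fall was that of COL5A1. COL5A1, a chain of type V collagen, held 138 and 93.4 CPM in DMSO and 15.5 and 14.1 CPM at 6 h (log2 change -2.96 ± 0.124 SE, adjusted p = 1.59e-23). Its DMSO libraries differed by more than the spread at 6 h, and both were over 6 times either treated library. WNT10B, a WNT ligand gene, stood at 6.13 and 7.78 CPM in DMSO and 0.979 and 1.37 CPM at 6 h. FUBP1 encodes a protein that binds single-stranded DNA upstream of MYC and was at 379.8 and 373 CPM in DMSO and 95.4 and 91.9 CPM at 6 h (log2 change -2.01 ± 0.0665 SE, adjusted p = 3.42e-27). Its replicates lay close together in both groups, 4.02-fold lower after WNK463. MLKL, the effector of necroptosis, fell from 18.8 and 17.1 to 5.46 and 5.14 CPM. TRMT61A, a subunit of a tRNA methyltransferase, fell from 38.2 and 32.7 to 10.8 and 10.4 CPM. BHLHA15, the secretory-cell factor MIST1, fell from 16.2 and 9.05 to 4.89 and 2.70 CPM, and its DMSO replicates differed from each other by more than the lower of them did from the nearer treated library. ARHGAP22 (log2 change -1.88), MFSD2A (log2 change -1.72), TRAT1 (log2 change -1.71) and 5 noncoding genes or pseudogenes (IFNG-AS1, SNHG26, FAM222A-AS1, RRP7BP and SNHG4, -1.69 to -2.51) were also among the 15 largest, as was SERHL2 (log2 change -1.87). Reads were counted without regard to strand, and 41.4% of the exonic bases of SERHL2 are shared with RRP7BP on the other strand, so reads in the shared bases cannot be assigned to either gene.

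**Figure D2:**
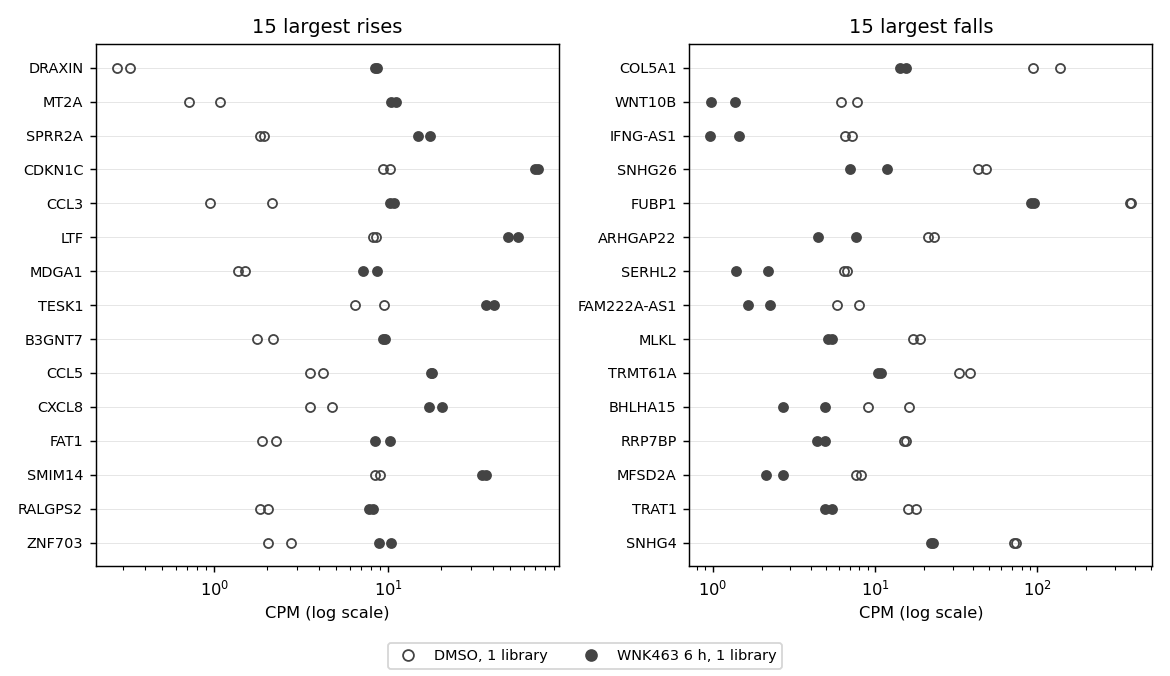
Levels in CPM (horizontal log axis) in each of the 4 libraries for the 15 largest rises and the 15 largest falls among named genes, with DMSO libraries as open circles and 6 h libraries as filled circles. The groups do not overlap in any of the 30 genes, as the choice required, and the COL5A1 replicates in DMSO (138 and 93.4 CPM) are visibly apart.

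By share of the library, the genes that gained most were not those with the largest fold. NDRG1, a stress and hypoxia gene, rose from 707 and 686 to 1292 and 1331 CPM (log2 change 0.91 ± 0.0510 SE, adjusted p = 4.52e-19). SLC38A2, a sodium-coupled carrier of neutral amino acids, rose from 268 and 286 to 842 and 783 CPM (log2 change 1.55 ± 0.0569 SE, adjusted p = 8.18e-26). IKZF3, the lymphoid factor Aiolos, rose from 772 and 780.1 to 1252 and 1210.0 CPM. Both treated libraries of these 3 genes lay far above the vehicle range. AHNAK, a giant scaffold gene, rose from 3822 and 3622 to 4793 and 4982 CPM. MT-RNR2, the large mitochondrial ribosomal RNA, stood at 4444 and 4737 CPM in DMSO and 6759 and 6966 CPM at 6 h. EEF1A1, the translation elongation factor, was at 13588 and 14071 CPM in DMSO and 15155 and 15194 CPM at 6 h, and its call (adjusted p = 0.00147) was lost without either 6 h replicate (adjusted p = 0.0572 and 0.0666). The rises of 2 other mitochondrial genes rested on 1 library. MT-CO1 was at 10141 and 11918 CPM in DMSO and 11968 and 12156 CPM at 6 h and MT-ND4 at 6372 and 8011 CPM in DMSO and 8144 and 8270.2 CPM at 6 h, and without DMSO replicate 1 their log2 changes were 0.02 and 0.03 and neither was called. The call of MT-CO1 was also lost without either 6 h replicate (adjusted p = 0.0902 and 0.165). The largest losses were those of HSPA8, a chaperone, followed by ACTB (log2 change -0.40), PABPC1 (log2 change -0.49), ENO1 (log2 change -0.23), NCL (log2 change -0.64) and ACTG1 (log2 change -0.41).

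Genes of the WNK pathway itself mostly rose. Of 18 tested WNK kinases, partner kinases and regulators, 12 were called higher and 1 lower, with a median log2 change of 0.52, against 18.7% higher and a median of -0.00 over all tested genes. WNK1, the most broadly expressed family member, stood at 274 and 268 CPM in DMSO and 396 and 411 CPM at 6 h (log2 change 0.57 ± 0.0599 SE, adjusted p = 9.56e-11). WNK2 moved the other way, from 17.9 and 15.1 CPM in DMSO to 6.70 and 8.90 CPM at 6 h (log2 change -1.08 ± 0.178 SE, adjusted p = 3.22e-06). In both kinases the libraries of the 2 groups were well apart. WNK3 and WNK4 fell below the filter, with 4 and 4 counts of WNK3 in DMSO, 0 and 2 at 6 h, and 1 count of WNK4 in the 4 libraries. Of the 2 kinases that WNKs phosphorylate, STK39 (SPAK) rose from 56.5 and 68.6 to 89.4 and 87.3 CPM (log2 change 0.50 ± 0.0907 SE, adjusted p = 1.87e-05). The other, OXSR1 (OSR1), was at 129.8 and 137 CPM in DMSO and 143 and 148 CPM at 6 h and was not called (log2 change 0.13 ± 0.0722 SE, adjusted p = 0.168). NRBP1, a pseudokinase related to the WNKs, rose from 115 and 110.1 to 184 and 192 CPM. TSC22 proteins form complexes with the WNKs and NRBP1, and TSC22D2 (log2 change 0.54) and TSC22D4 (log2 change 0.66) rose. SGK1, a salt- and hormone-responsive kinase, was low and rose from 7.30 and 5.47 to 10.4 and 14.0 CPM.

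Among the transporters downstream of the kinases, 2 of 6 tested SLC12 genes were called higher and 1 lower. That is 33.3% and 16.7%, against 18.7% and 19.0% of all tested genes. SLC12A2 encodes NKCC1, the sodium-potassium-chloride importer, and was at 59.2 and 58.0 CPM in DMSO and 80.1 and 77.0 CPM at 6 h (log2 change 0.42 ± 0.0899 SE, adjusted p = 1.70e-04). SLC12A7 encodes KCC4, a potassium-chloride exporter, and went down from 211 and 199.7 to 167 and 166 CPM (log2 change -0.30 ± 0.0680 SE, adjusted p = 3.41e-04). In both genes the treated libraries lay outside the DMSO range. Of the LRRC8 subunits that build the volume-regulated anion channel, LRRC8C rose (85.7 and 89.6 CPM in DMSO and 151 and 147 CPM at 6 h) and LRRC8D fell (82.0 and 96.8 CPM in DMSO and 63.7 and 65.6 CPM at 6 h). The obligate subunit LRRC8A rose from 49.5 and 46.5 to 58.2 and 60.7 CPM, a call that was lost without 6 h replicate 2 (adjusted p = 0.0987). NFAT5, the transcription factor of the response to hypertonicity, rose from 57.8 and 56.2 to 90.8 and 84.7 CPM (log2 change 0.62 ± 0.0864 SE, adjusted p = 1.06e-07). Its textbook target SLC6A6, the taurine carrier, also rose (log2 change 0.57), whereas AKR1B1 (log2 change -0.07) and SLC5A3 (log2 change 0.15), genes for making or importing osmolytes, were not called. Of 10 sodium pump and proton exchange genes, 2 were called higher and 1 lower (20% and 10%), and 5 were higher with library size scaling alone. ATP1B1, 1 of the 2, had under 10 counts in each DMSO library, so the filter fixed its direction in advance.

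**Figure D3:**
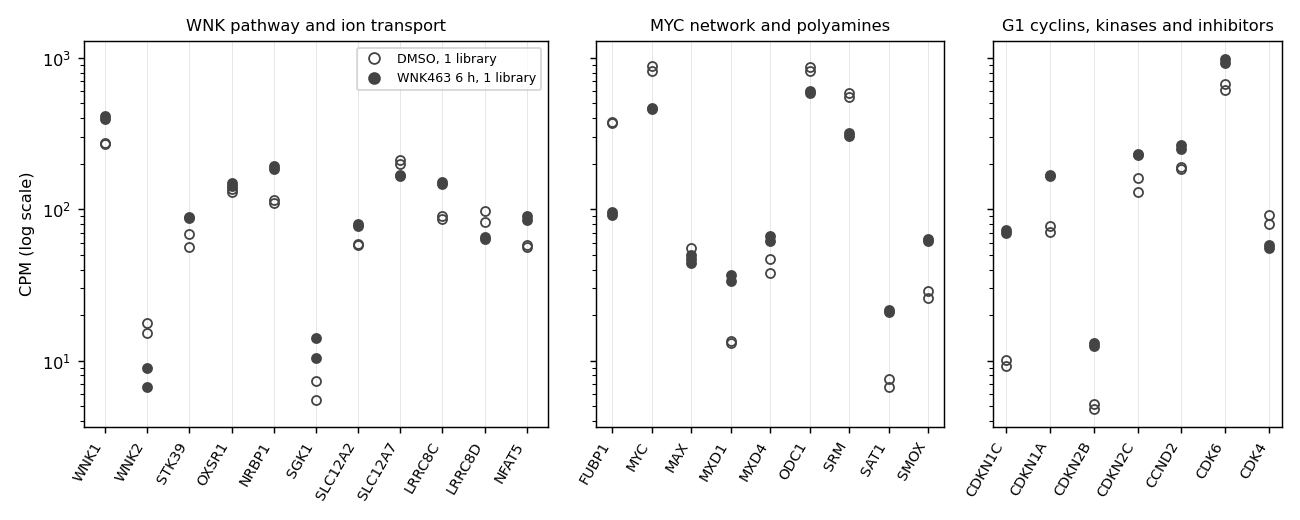
CPM in each of the 4 libraries (vertical log axis) for genes of the WNK pathway and ion transport, of the MYC network and of the G1 cyclins, kinases and inhibitors, with DMSO as open and 6 h as filled circles. WNK1 and WNK2 separate in opposite directions, MYC and FUBP1 fall, MXD1 and CDKN1C rise, and the groups of OXSR1 and MAX, neither called, lie close together.

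The genes that make ribosomes fell together. The nucleolus transcribes ribosomal RNA with RNA polymerase I, trims and modifies it with small nucleolar RNA particles, and folds it into the small and large subunits with a set of assembly factors, many of them textbook targets of MYC. Of 15 tested polymerase I genes 10 were called lower and 0 higher (median log2 change -0.40). The small-subunit processome had 38 of 43 lower and 0 higher (median -0.56), the small nucleolar particles 13 of 15 lower and 0 higher (median -0.57), and the large-subunit factors 50 of 54 lower and 0 higher (median -0.71). Over all tested genes 19.0% were lower and 18.7% higher. These lists were drawn up with earlier results of the same libraries known, so their direction is a description.

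By role, POLR1A, the largest subunit of polymerase I, was at 239.7 and 218 CPM in DMSO and 127 and 145 CPM at 6 h (log2 change -0.75 ± 0.0719 SE, adjusted p = 1.12e-11), and its partner POLR1B at 161 and 165 CPM in DMSO and 106 and 105 CPM at 6 h. UBTF, which opens ribosomal DNA for transcription, fell by less (log2 change -0.40), and the initiation subunits TAF1B (log2 change -0.07) and TAF1C (log2 change -0.17) were not called. In the small-subunit processome UTP20, a long scaffold protein, went from 177 and 181 to 73.6 and 81.6 CPM (log2 change -1.21 ± 0.0757 SE, adjusted p = 2.25e-17). UTP4, of the first complex to join the transcript, was at 128 and 138 CPM in DMSO and 72.0 and 72.5 CPM at 6 h. NOL6 was at 138 and 127 CPM in DMSO and 60.9 and 56.1 CPM at 6 h, 2.26-fold lower. In these 3 genes the replicates of each group lay close together and far from the other group. WDR43 was at 295 and 309 CPM in DMSO and 157 and 149 CPM at 6 h (log2 change -0.98). The core proteins of the box C/D particle, which methylate ribosomal RNA, were lower too. NOP56 stood at 416 and 394 CPM in DMSO and 211 and 206 CPM at 6 h, and its partner NOP58 at 242 and 272 CPM in DMSO and 142 and 149 CPM at 6 h. DKC1, the pseudouridine synthase of the H/ACA particle, was at 247 and 245 CPM in DMSO and 147 and 147 CPM at 6 h (log2 change -0.74 ± 0.0660 SE, adjusted p = 1.11e-12). Among large-subunit factors MYBBP1A fell from 251 and 231 to 104 and 94.2 CPM (log2 change -1.28 ± 0.0715 SE, adjusted p = 4.52e-19). MRTO4, which holds the place of a ribosomal stalk protein during assembly, fell from 214 and 204 to 91.6 and 88.7 CPM. MDN1, a giant AAA ATPase that strips factors from the maturing subunit, fell from 354 and 341 to 194 and 203 CPM. The abundant nucleolar proteins nucleolin (NCL, 1838 and 1826 CPM in DMSO and 1159.6 and 1184 CPM at 6 h) and nucleophosmin (NPM1, 2089 and 2227 CPM in DMSO and 1527 and 1559 CPM at 6 h) fell by log2 changes of -0.64 and -0.48. The 4 large-subunit factors that were not called were NVL, SDAD1, RPF1 and DDX24 (-0.30 to -0.08).

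Promoters of several of these genes hold the E-box CACGTG, the letters that MYC with MAX and some other factors bind. Promoters were taken from RefSeq (GRCh38.p14) as the 250 bases before and 50 after the first listed start, and 10720 of the tested genes matched by symbol. CACGTG, which reads the same on both strands, occurred in 34 of 93 promoters (36.6%) of the nucleolar genes of the 4 lists called lower. Over whole lists it occurred in 18 of 37 (48.6%) small-subunit processome promoters and in 15 of 47 (31.9%) of those of large-subunit factors. It was in 2 of 10 (20%) of those of the small nucleolar particles and in 1 of 14 (7.14%) of those of the polymerase I list. Among lists with more genes higher than lower, it was in 4 of 12 (33.3%) lysosomal proton pump and 7 of 24 (29.2%) mTORC1 promoters. The WNK list, also mostly higher, held it in 0 of 15. The share was 10.1% among all tested genes with a promoter, 14.5% among those called lower, 9.28% among those called higher, 8.90% among those not called and 7.26% of all 35116 promoters in the table. A match shows the letters only and not binding. The 250 bases before the start are printed, a choice made after the values were seen, for the 4 nucleolar genes with the smallest adjusted p among those with an upstream match, 5′ to 3′ on the gene's strand, with the E-box in capitals. They show how its place differs between genes, at 10 bases before the start in UTP20 (chr12:101279855-101280104, plus strand), 155 in MDN1 (chr6:89819795-89820044, minus strand), 237 in EBNA1BP2 (chr1:43172571-43172820, minus strand) and 16 in UTP4 (chr16:69132399-69132648, plus strand).
UTP20: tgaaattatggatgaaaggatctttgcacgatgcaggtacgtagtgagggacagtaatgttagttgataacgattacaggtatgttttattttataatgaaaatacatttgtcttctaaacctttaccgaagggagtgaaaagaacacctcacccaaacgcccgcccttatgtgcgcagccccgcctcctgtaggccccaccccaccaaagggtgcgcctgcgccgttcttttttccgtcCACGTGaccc
MDN1: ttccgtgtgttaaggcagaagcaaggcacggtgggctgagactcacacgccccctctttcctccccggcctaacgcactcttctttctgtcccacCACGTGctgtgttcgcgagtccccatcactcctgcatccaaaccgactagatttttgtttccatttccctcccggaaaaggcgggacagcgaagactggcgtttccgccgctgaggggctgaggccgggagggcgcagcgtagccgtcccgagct
EBNA1BP2: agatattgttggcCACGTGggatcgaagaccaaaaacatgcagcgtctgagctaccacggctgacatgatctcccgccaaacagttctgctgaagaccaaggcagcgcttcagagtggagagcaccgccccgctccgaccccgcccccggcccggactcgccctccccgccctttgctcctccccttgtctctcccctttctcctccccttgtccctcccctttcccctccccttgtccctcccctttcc
UTP4: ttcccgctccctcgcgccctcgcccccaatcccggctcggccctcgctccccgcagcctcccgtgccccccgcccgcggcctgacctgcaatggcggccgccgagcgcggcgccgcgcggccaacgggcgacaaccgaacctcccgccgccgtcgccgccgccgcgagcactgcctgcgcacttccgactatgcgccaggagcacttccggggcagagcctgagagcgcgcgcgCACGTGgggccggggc
EBNA1BP2, a large-subunit factor, was itself at 162 and 154 CPM in DMSO and 85.4 and 85.7 CPM at 6 h (log2 change -0.88 ± 0.0750 SE, adjusted p = 3.35e-13), with 18.8% of its exonic length shared with CFAP57 on the other strand. The other 3 genes are given above.

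RNA polymerase III, which makes transfer RNA and 5S ribosomal RNA, showed the same direction. Of its 21 genes 12 were lower and 0 higher (median -0.26), against 19.0% lower and 18.7% higher of all tested genes. POLR3E went from 132 and 119.8 to 73.2 and 77.3 CPM. Host genes that carry small nucleolar RNAs in their introns gave 16 lower and 0 higher of 29 (median -0.56). SNHG26 stood at 42.8 and 48.0 CPM in DMSO and 7.01 and 11.9 CPM at 6 h. SNHG12 was at 44.5 and 37.6 CPM in DMSO and 19.0 and 18.3 CPM at 6 h. SNHG1 was at 229 and 219 CPM in DMSO and 123 and 123 CPM at 6 h. In each the treated libraries lay well below both vehicle libraries.

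**Figure D4:**
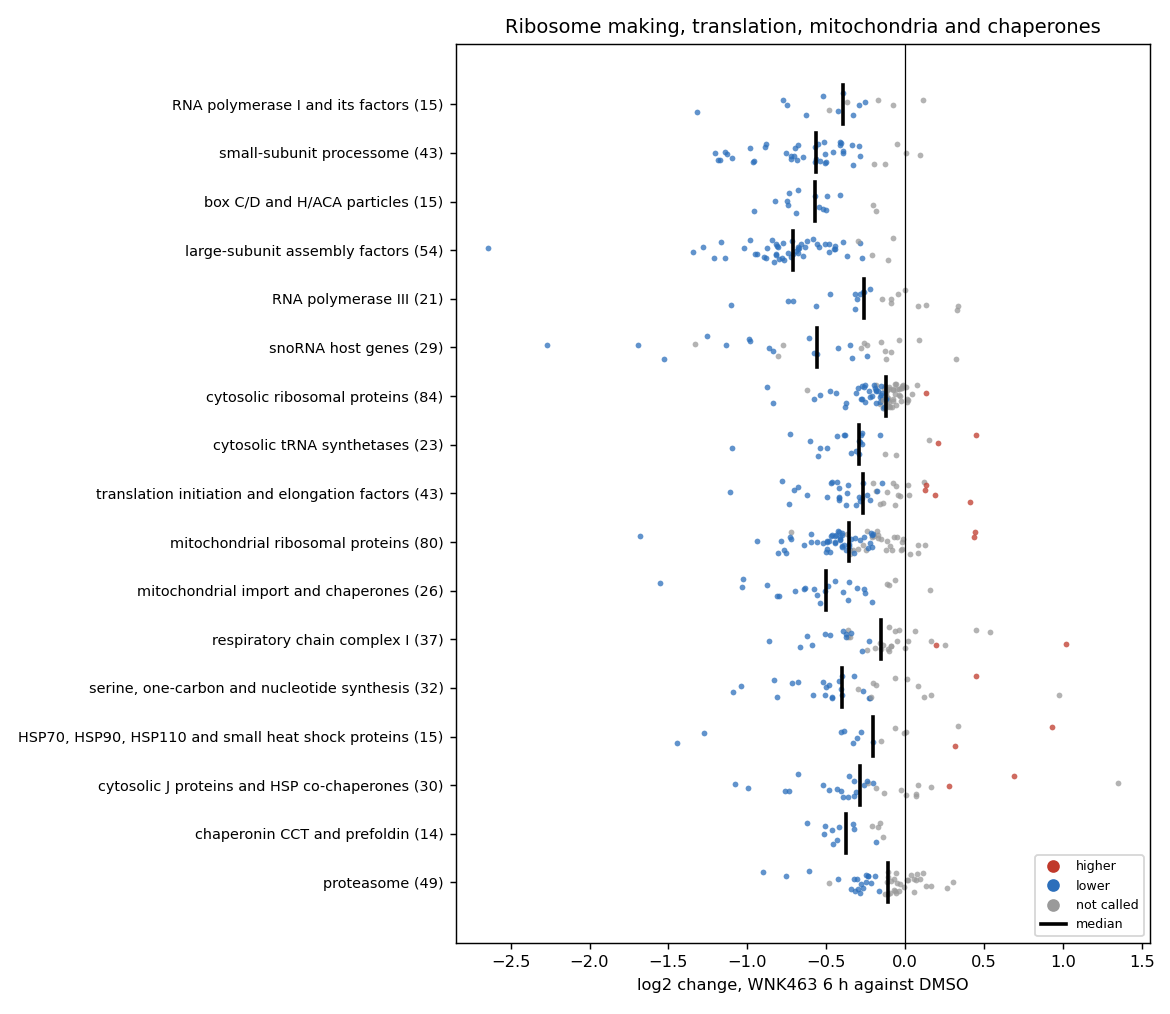
Log2 change at 6 h against DMSO for each tested member (1 point per gene) of the lists for ribosome making, translation, mitochondria, chaperones and related growth genes, with members called higher in red, called lower in blue and not called in grey, and the list median as a black bar. The nucleolar lists lie almost wholly below 0 (medians -0.40 to -0.71), and the ribosomal proteins are closer to 0 (median -0.12).

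The ribosomal protein list had a median closer to 0 than the lists of factors that assemble ribosomes. Of 84 tested, 35 were called lower and 1 higher, with a median log2 change of -0.12. That was 41.7% and 1.19%, against 19.0% and 18.7% of all tested genes. Single libraries moved the number called lower, to 22 and 53 without DMSO replicates 1 and 2 and to 10 and 21 without 6 h replicates 1 and 2, and library size scaling alone gave 21. RPL24 was at 369.9 and 362 CPM in DMSO and 299.8 and 313 CPM at 6 h (log2 change -0.26 ± 0.0592 SE, adjusted p = 5.16e-04). RPL8 was at 2093 and 1538 CPM in DMSO and 1456 and 1498 CPM at 6 h, and its fall rested on 1 library: without DMSO replicate 1 the log2 change was -0.06 and was not called. Reads of this family are partly shared with processed pseudogenes, so single members are uncertain. The enzymes that charge transfer RNA gave 18 of 23 lower and 2 higher, with IARS1, which charges isoleucine, at 483 and 531 CPM in DMSO and 334 and 334 CPM at 6 h. The 2 called higher were WARS1 (log2 change 0.45) and QARS1 (log2 change 0.21), named after their values were seen, and QARS1 was not called without DMSO replicate 2 or either 6 h replicate (adjusted p = 0.0796, 0.231 and 0.0668). Translation factors gave 26 lower and 4 higher of 43. EIF4G1, the scaffold of the cap-binding complex, was at 1193 and 1045 CPM in DMSO and 697 and 701 CPM at 6 h (log2 change -0.68 ± 0.0547 SE, adjusted p = 6.62e-14), and EIF3B, a core subunit of the initiation factor eIF3, at 1044 and 965 CPM in DMSO and 589.6 and 617 CPM at 6 h. PABPC1, the poly(A)-binding protein, fell from 3663 and 3791 to 2656 and 2637 CPM. The helicase gene EIF4A2 rose (log2 change 0.41).

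Mitochondrial genes encoded in the nucleus were lower more often than higher. Of 80 mitochondrial ribosomal protein genes 50 were lower and 2 higher (median -0.35), with 33 lower without 6 h replicate 1. MRPL3, of the large mitochondrial subunit, was at 167 and 187 CPM in DMSO and 112 and 128 CPM at 6 h. Import channels and matrix chaperones gave 22 lower and 0 higher of 26 (median -0.50). TOMM40, the pore of the outer membrane, was at 181 and 154 CPM in DMSO and 79.8 and 83.7 CPM at 6 h (log2 change -1.03 ± 0.0783 SE, adjusted p = 9.71e-15) and TIMM44, which ties the inner pore to its motor, at 99.7 and 83.4 CPM in DMSO and 52.7 and 51.5 CPM at 6 h. Lists of respiratory chain subunits had medians closer to 0, and the complex I share lower was near that of the shortest genes. Of 37 complex I genes 12 were lower (32.4%) and 2 higher (median -0.16). Of 40 genes of the other complexes 16 were lower (40%) and 0 higher (median -0.17). Without 6 h replicate 1 these counts were 5 and 9, and without DMSO replicate 1 that of complex I was 5. CYCS, the cytochrome c gene, stood at 544 and 544 CPM in DMSO and 331 and 329 CPM at 6 h (log2 change -0.72 ± 0.0570 SE, adjusted p = 3.85e-14).

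MYC itself fell, beside FUBP1, known to bind upstream of it. MYC was at 882 and 823 CPM in DMSO and 464 and 462 CPM at 6 h (log2 change -0.88 ± 0.0550 SE, adjusted p = 2.09e-17), and both treated libraries were nearly equal. MAX, the obligate partner of MYC, was at 55.3 and 46.9 CPM in DMSO and 44.3 and 50.1 CPM at 6 h and was not called (log2 change -0.11, adjusted p = 0.424). The MXD proteins compete with MYC for MAX, and MXD1 went from 13.0 and 13.5 to 37.1 and 33.7 CPM (log2 change 1.42 ± 0.123 SE, adjusted p = 5.89e-13). MXD4, named after its value was seen, rose from 47.1 and 38.0 to 66.6 and 61.3 CPM, and MXD3, part of whose exons overlap other genes, was at 20.6 and 12 CPM in DMSO and 41.4 and 40.6 CPM at 6 h. Of 16 network genes tested, 6 were lower and 3 higher. The enzymes that make serine, one-carbon units and nucleotides gave 21 of 32 lower and 1 higher (median -0.40). PAICS, of purine synthesis, was at 520.3 and 541 CPM in DMSO and 328 and 319 CPM at 6 h. DHODH, of pyrimidine synthesis, was at 43.1 and 37.5 CPM in DMSO and 19.8 and 19.3 CPM at 6 h. The single member that rose was RRM2, a subunit of ribonucleotide reductase (457 and 483 CPM in DMSO and 640.0 and 642 CPM at 6 h). Polyamine genes gave 5 higher and 4 lower of 15 (33.3% and 26.7%, against 18.7% and 19.0% of all tested genes). Of the synthetic enzymes, ODC1, which makes putrescine, was at 823 and 867 CPM in DMSO and 602 and 588 CPM at 6 h, and SRM, spermidine synthase, at 548 and 586 CPM in DMSO and 321 and 304 CPM at 6 h. AMD1 fell too (log2 change -0.63). Of the catabolic enzymes, SAT1, which acetylates polyamines for export, was at 7.63 and 6.74 CPM in DMSO and 21 and 21.5 CPM at 6 h, and SMOX, which oxidises spermine, at 29.0 and 25.9 CPM in DMSO and 63.3 and 61.6 CPM at 6 h. In these 4 genes with values the groups did not overlap. AZIN1, which protects ODC1 from its antizyme, also rose (log2 change 0.31), and DOHH, which modifies eIF5A, fell (log2 change -0.59). The other members called higher were AZIN2 (log2 change 1.58), whose call was lost without either DMSO replicate or 6 h replicate 2 (adjusted p = 0.126, 0.0605 and 0.227), and SAT2 (log2 change 1.00), whose call was lost without 6 h replicate 1 (adjusted p = 0.233).

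Cytosolic chaperones fell while several chaperones of the ER rose. HSPA8, the constitutive HSP70, lost more of the library than any other named gene and was at 3719.9 and 3994 CPM in DMSO and 1586 and 1601 CPM at 6 h (log2 change -1.28 ± 0.0454 SE, adjusted p = 3.55e-26). The treated libraries lay close together, far below either vehicle library. HSPA8 lies on chromosome 11 from 123057489 to 123063230 in hg38. Of 15 HSP70, HSP90, HSP110 and related genes 8 were lower and 2 higher (53.3% and 13.3%), against 19.0% and 18.7% of all tested genes. HSPH1, the HSP110 exchange factor, was at 264 and 288 CPM in DMSO and 203 and 213 CPM at 6 h. The constitutive HSP90 gene HSP90AB1 was at 4181 and 4432 CPM in DMSO and 3776 and 3706 CPM at 6 h and the inducible HSP90AA1 at 1284 and 1392 CPM in DMSO and 1116 and 1092 CPM at 6 h. The stress-inducible HSPA1A was not called (log2 change -0.06, adjusted p = 0.898). Their partners, the J proteins and HSP90 co-chaperones, gave 18 lower and 2 higher of 30, with CHORDC1, an HSP90 partner, at 127 and 149.6 CPM in DMSO and 71.1 and 67.6 CPM at 6 h. AHSA1, which activates HSP90, was at 122 and 99.9 CPM in DMSO and 62.8 and 67.7 CPM at 6 h. Both fell with no overlap between groups. The CCT chaperonin and prefoldin, which fold actin and tubulin, gave 10 lower and 0 higher of 14 (median -0.38), with the ring subunit CCT6A at 873 and 867 CPM in DMSO and 606 and 617 CPM at 6 h. Actin itself, ACTB, was at 5679.6 and 6184 CPM in DMSO and 4406 and 4603 CPM at 6 h.

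The promoter of HSPA8 is shown because it held the heat shock unit, searched as GAANNTTC or TTCNNGAA, 4 times before the start, in 2 overlapping pairs. This unit occurred in 6 of 13 promoters of the HSP70 and HSP90 list, in 10.3% of tested genes with a promoter and in 13.5% of all promoters in the table. It was also in 6 of 14 promoters of the polymerase I list. By call the share was 10.1% of genes higher, 10.3% of those lower and 10.3% of those not called. The printed promoters, too, were chosen after the values were seen. Capitals mark the matches in HSPA8 (chr11:123062137-123062386, minus strand), which start 230, 225, 55 and 50 bases before the first RefSeq start. The gene model used for counting reaches further upstream than that start. HSPE1 and HSPD1, the paired chaperonin genes of the mitochondrion, are read in opposite directions from 1 shared stretch, and the HSPE1 side (chr2:197500129-197500378, plus strand) held an E-box, in capitals, 22 bases before the start.
HSPA8: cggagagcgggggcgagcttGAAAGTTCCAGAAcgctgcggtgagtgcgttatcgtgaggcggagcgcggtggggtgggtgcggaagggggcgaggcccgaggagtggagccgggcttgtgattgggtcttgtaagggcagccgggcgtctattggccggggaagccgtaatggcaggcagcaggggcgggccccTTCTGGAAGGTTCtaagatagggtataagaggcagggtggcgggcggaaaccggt
HSPE1: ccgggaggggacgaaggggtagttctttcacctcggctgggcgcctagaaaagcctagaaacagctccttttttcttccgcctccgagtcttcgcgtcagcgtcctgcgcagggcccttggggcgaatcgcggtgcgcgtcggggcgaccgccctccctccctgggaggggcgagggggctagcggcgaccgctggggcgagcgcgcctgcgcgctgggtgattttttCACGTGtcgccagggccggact
HSPE1 fell from 69.0 and 52.8 to 36.4 and 30.0 CPM and HSPD1 from 1099 and 1163 to 789 and 804 CPM.

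In the ER, 25 of 50 genes of folding, degradation and the unfolded protein response were called higher and 6 lower (median 0.18), against 18.7% and 19.0% over all genes. HSPA5, the ER HSP70 called BiP, was at 1073 and 1169 CPM in DMSO and 1369 and 1368 CPM at 6 h (log2 change 0.29 ± 0.0501 SE, adjusted p = 8.27e-06). DNAJB9, a J protein of the ER, rose from 20.3 and 21.8 to 48.6 and 39.5 CPM (log2 change 1.06 ± 0.119 SE, adjusted p = 5.92e-10). SEL1L (215 and 240.1 CPM in DMSO and 382 and 374 CPM at 6 h), SYVN1 (log2 change 0.65) and HERPUD1 (log2 change 0.65) belong to the complex that returns misfolded proteins to the cytosol, and EDEM1 (log2 change 0.50) delivers them to it. The translocation channel went the other way, with SEC61A1 at 435 and 418 CPM in DMSO and 314 and 327 CPM at 6 h, and XBP1, a factor of the response, fell from 247 and 266 to 204 and 206 CPM (log2 change -0.32 ± 0.0644 SE, adjusted p = 6.92e-05). Proteasome genes gave 19 lower and 0 higher of 49 (median -0.11; 11 and 9 lower without 6 h replicates 1 and 2), among them the activator PSME3 (294 and 297 CPM in DMSO and 192 and 195 CPM at 6 h) and the assembly factor PSMG1 (log2 change -0.75).

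Genes of the integrated stress response, which ATF4 drives when translation initiation slows, split. Of 41, 20 were lower and 7 higher. The amino acid carriers SLC7A5 (1155 and 1081 CPM in DMSO and 623 and 641 CPM at 6 h) and SLC7A1 (325 and 301 CPM in DMSO and 208 and 198 CPM at 6 h) fell. PPP1R15A, which resets initiation by removing the phosphate from eIF2, rose from 18.7 and 12.6 to 28.0 and 39.8 CPM, and KLHL24 from 19.9 and 22.1 to 69.8 and 69.9 CPM. Among 30 genes of the growth kinase mTORC1 and its regulators 7 rose and 3 fell, 23.3% and 10% of the list against 18.7% and 19.0% of all tested genes. SESN3, an inhibitory sestrin, rose from 76.3 and 83.6 to 138 and 129.6 CPM. Its relative SESN2 rose from 25.9 and 15.7 to 34.4 and 36.6 CPM (log2 change 0.78), and the change was 1.18 without DMSO replicate 1 and 0.46 without DMSO replicate 2. The kinase MTOR itself was not called (log2 change 0.08, adjusted p = 0.344).

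Genes that FOXO factors switch on when PI3K signalling is low were mostly higher. Of 29 factors and targets 16 rose and 1 fell (median 0.37), 55.2% and 3.45% against 18.7% and 19.0% of all tested genes. TXNIP, an inhibitor of thioredoxin and glucose uptake, was at 118 and 121 CPM in DMSO and 316 and 317 CPM at 6 h (log2 change 1.40 ± 0.0659 SE, adjusted p = 1.01e-21). CCNG2, an atypical cyclin of growth arrest, rose from 10.5 and 12.1 to 41.1 and 38.8 CPM (log2 change 1.82 ± 0.131 SE, adjusted p = 2.24e-15). FBXO32, a ubiquitin ligase gene, rose from 2.16 and 2.55 to 9.32 and 8.75 CPM. In all 3 the treated libraries were over 2 times either vehicle library.

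Autophagy and lysosome genes rose more often than they fell, by modest amounts. Of 62, 23 were higher and 4 lower (median 0.17), 37.1% and 6.45% against 18.7% and 19.0% of all tested genes. CTSB, the lysosomal protease cathepsin B, was at 118 and 115 CPM in DMSO and 236 and 239 CPM at 6 h (log2 change 1.03 ± 0.0700 SE, adjusted p = 3.40e-16). NPC1, the lysosomal cholesterol exporter, was at 88.3 and 80.6 CPM in DMSO and 145 and 146 CPM at 6 h. LAMP2, a membrane protein of the lysosome, was at 159 and 179 CPM in DMSO and 257 and 269 CPM at 6 h. In these 3 genes both treated libraries were above both vehicle libraries. SQSTM1, the autophagy receptor p62, stood at 1070.1 and 986 CPM in DMSO and 1508 and 1538 CPM at 6 h, with 22.4% of its exonic length shared with the antisense gene MRNIP. The proton pump that acidifies the lysosome gave 6 of 17 subunits higher and 1 lower, and ATP6V0A1 was at 92.3 and 89.9 CPM in DMSO and 113 and 115 CPM at 6 h. Leaving out 1 library ended the call of 4 of the 6 subunits that rose. The adjusted p reached 0.137 for ATP6V0A2 and 0.0995 for ATP6V1E1 without 6 h replicate 2, and 0.125 for ATP6V0D1 and 0.111 for ATP6V1A without 6 h replicate 1. The calls of ATP6V0A2 and ATP6V1A were also lost without DMSO replicate 1 (adjusted p = 0.0506 and 0.0891). The palindrome TCACGTGA, the core of the lysosomal CLEAR element, contains the E-box. It occurred in 6 of 49 promoters of the autophagy and lysosome list and in 2 of 12 of the proton pump. It was in 1.93% of tested genes with a promoter and in 0.980% of all promoters in the table. By call the share was 2.17% of genes higher, 2.02% of those lower and 1.815% of those not called. The 2 rising genes of these lists with the smallest adjusted p and an upstream match, chosen after the values were seen, are shown with it in capitals, GAA (chr17:80101331-80101580, plus strand), which encodes acid alpha-glucosidase, and ATP6V0D1 (chr16:67481158-67481407, minus strand).
GAA: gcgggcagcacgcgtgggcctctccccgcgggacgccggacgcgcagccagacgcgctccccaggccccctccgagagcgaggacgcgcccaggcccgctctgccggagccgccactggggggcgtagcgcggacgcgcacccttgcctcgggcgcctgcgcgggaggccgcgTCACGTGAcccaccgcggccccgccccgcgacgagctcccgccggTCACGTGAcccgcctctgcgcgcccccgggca
ATP6V0D1: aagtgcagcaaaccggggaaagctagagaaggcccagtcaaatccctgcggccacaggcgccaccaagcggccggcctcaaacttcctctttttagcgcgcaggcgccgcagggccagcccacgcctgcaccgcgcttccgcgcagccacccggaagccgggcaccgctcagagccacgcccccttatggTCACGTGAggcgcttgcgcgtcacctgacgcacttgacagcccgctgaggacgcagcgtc
GAA held the match 2 times and rose from 90.5 and 85.4 to 109 and 116 CPM. ATP6V0D1 held it once.

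Metallothioneins bind zinc and copper and are switched on by the metal sensor MTF1. MT2A was at 0.719 and 1.08 CPM in DMSO and 10.3 and 11.1 CPM at 6 h (log2 change 3.55 ± 0.311 SE, adjusted p = 7.64e-13), so that both treated libraries were over 9 times the higher vehicle library. MT1G was at 0.111 and 0.0943 CPM in DMSO and 1.49 and 3.61 CPM at 6 h (log2 change 4.57 ± 0.827 SE, adjusted p = 1.60e-05), and the change was 3.79 without 6 h replicate 2. With under 10 counts in each DMSO library, MT1G passed the filter only through its 6 h libraries. Its direction was thus fixed in advance, and its values are descriptions only. MT1X (log2 change 0.31) and MTF1 (log2 change 0.01) were not called, and 9 further genes of the list were below the filter. The zinc importer SLC39A14 fell from 137 and 143 to 107 and 105 CPM. The promoter of MT2A (chr16:56608334-56608583, plus strand) is shown for its row of metal response cores, searched as TGCACNC or TGCGCNC on both strands and set in capitals. It held 7 of them in 250 bases. At least 1 was found in 39.0% of tested genes with a promoter and in 29.6% of all promoters in the table, over 300 bases. By call the share was 37.75% of genes higher, 43.0% of those lower and 38.0% of those not called.
MT2A: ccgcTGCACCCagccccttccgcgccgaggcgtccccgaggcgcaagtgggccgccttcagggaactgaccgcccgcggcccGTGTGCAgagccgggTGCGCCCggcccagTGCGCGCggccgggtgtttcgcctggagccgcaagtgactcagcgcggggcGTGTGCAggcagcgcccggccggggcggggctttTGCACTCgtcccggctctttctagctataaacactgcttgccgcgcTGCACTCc
MT2A lies on chromosome 16 from 56608584 to 56609497 in hg38.

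Sterol and fatty acid genes did not move as 1 block. INSIG1, which holds the sterol sensor in the ER, was at 589 and 621 CPM in DMSO and 1083 and 1064 CPM at 6 h (log2 change 0.83 ± 0.0528 SE, adjusted p = 3.83e-17), and SREBF1, a master factor of lipid synthesis, rose from 69.0 and 65.2 to 114 and 107 CPM. In the whole cholesterol list 8 of 27 were higher and 4 lower (29.6% and 14.8%), against 18.7% and 19.0% of all tested genes. Fatty acid synthesis gave 7 of 18 lower and 2 higher, with FASN, fatty acid synthase, at 806 and 744 CPM in DMSO and 482 and 497 CPM at 6 h. ACACA, which makes its substrate, was at 141 and 142 CPM in DMSO and 78.2 and 75.3 CPM at 6 h. SCD, which adds a double bond, was at 342 and 335 CPM in DMSO and 197 and 205 CPM at 6 h. These 3 fell with no overlap between groups. Of 11 genes of the liver X receptors, which sense oxidised sterols, 7 rose and 1 fell (median 0.72). ABCA1, a sterol exporter, went from 18.7 and 18.9 to 57.9 and 61.0 CPM (log2 change 1.66 ± 0.113 SE, adjusted p = 3.27e-16). MYLIP, which degrades the LDL receptor, went from 11.2 and 11.4 to 20.5 and 22.4 CPM. ABCG1, a related exporter, had 1 count in the DMSO libraries together and 65 at 6 h, so the ratio was 65.4, with a 95% exact counting interval of 11.3 to 2622. Its fitted log2 change of 5.71, which depends on the prior count, was 8.09 without DMSO replicate 1 and 4.76 without DMSO replicate 2. Such intervals cover counting error only. With so few DMSO counts ABCG1 could pass the filter only through its 6 h libraries, which fixed its direction in advance.

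Inhibitors of the cell cycle rose, and genes of DNA replication fell more often than they rose. Of 17 D and E cyclins, their kinases, kinase inhibitors and pocket proteins 11 were higher and 1 lower (median 0.40). That was 64.7% and 5.88%, against 18.7% and 19.0% of all tested genes. Beside CDKN1C, CDKN1A, the p21 inhibitor, was at 78.1 and 71.3 CPM in DMSO and 169.7 and 167 CPM at 6 h (log2 change 1.17 ± 0.0746 SE, adjusted p = 3.83e-17) and CDKN2C, the p18 inhibitor, at 160.2 and 129 CPM in DMSO and 228 and 231 CPM at 6 h. CDKN2B, the p15 inhibitor, was low at 5.14 and 4.76 CPM in DMSO and 13.1 and 12.5 CPM at 6 h, and is named after its value was seen. Partners of cell cycle entry did not share a direction. CCND2, a D-type cyclin of myeloma, rose from 186 and 191 to 267 and 249 CPM and CDK6 from 610.1 and 672 to 984 and 924 CPM. CDK4 fell from 92.0 and 80.3 to 57.8 and 55.9 CPM, with 44.2% of its exonic length shared with the antisense gene TSPAN31. GADD45A, a growth-arrest gene, rose from 143 and 123 to 235 and 233 CPM, and AEN, a nuclease gene, fell from 62.9 and 53.4 to 24.6 and 30.0 CPM.

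G1-S and replication genes gave 22 lower and 5 higher of 57 (median -0.14). That was 38.6% and 8.77%, against 19.0% and 18.7% of all tested genes. MCM4, a subunit of the replicative helicase, was at 552 and 536 CPM in DMSO and 338 and 335 CPM at 6 h. GINS2, part of its activator, was at 103 and 108 CPM in DMSO and 53.1 and 56.2 CPM at 6 h. Those that rose included the repressor E2F7 (55.0 and 64.9 CPM in DMSO and 104 and 101 CPM at 6 h). Mitosis and kinetochore genes went the other way more often, with 26 higher and 10 lower of 68 (median 0.07), and with 17 higher without 6 h replicate 1. CCNA2, cyclin A, was at 123 and 122 CPM in DMSO and 165 and 163 CPM at 6 h. The spindle motor gene KIF2C was at 136 and 129 CPM in DMSO and 191 and 197 CPM at 6 h. CDC20, which triggers anaphase, fell from 222 and 214 to 142 and 153 CPM. Replication-dependent histone genes, whose messages normally lack a poly(A) tail, gave 11 of 26 higher and 0 lower (median 0.85), and 43 more were below the filter. H2BC21 was at 6.08 and 7.64 CPM in DMSO and 26.8 and 28.2 CPM at 6 h (log2 change 2.00 ± 0.162 SE, adjusted p = 8.88e-14) and H2BC12 at 35.3 and 34.4 CPM in DMSO and 61.3 and 62.4 CPM at 6 h. Whether the libraries were selected for poly(A) was not stated in the labels or headers.

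**Figure D5:**
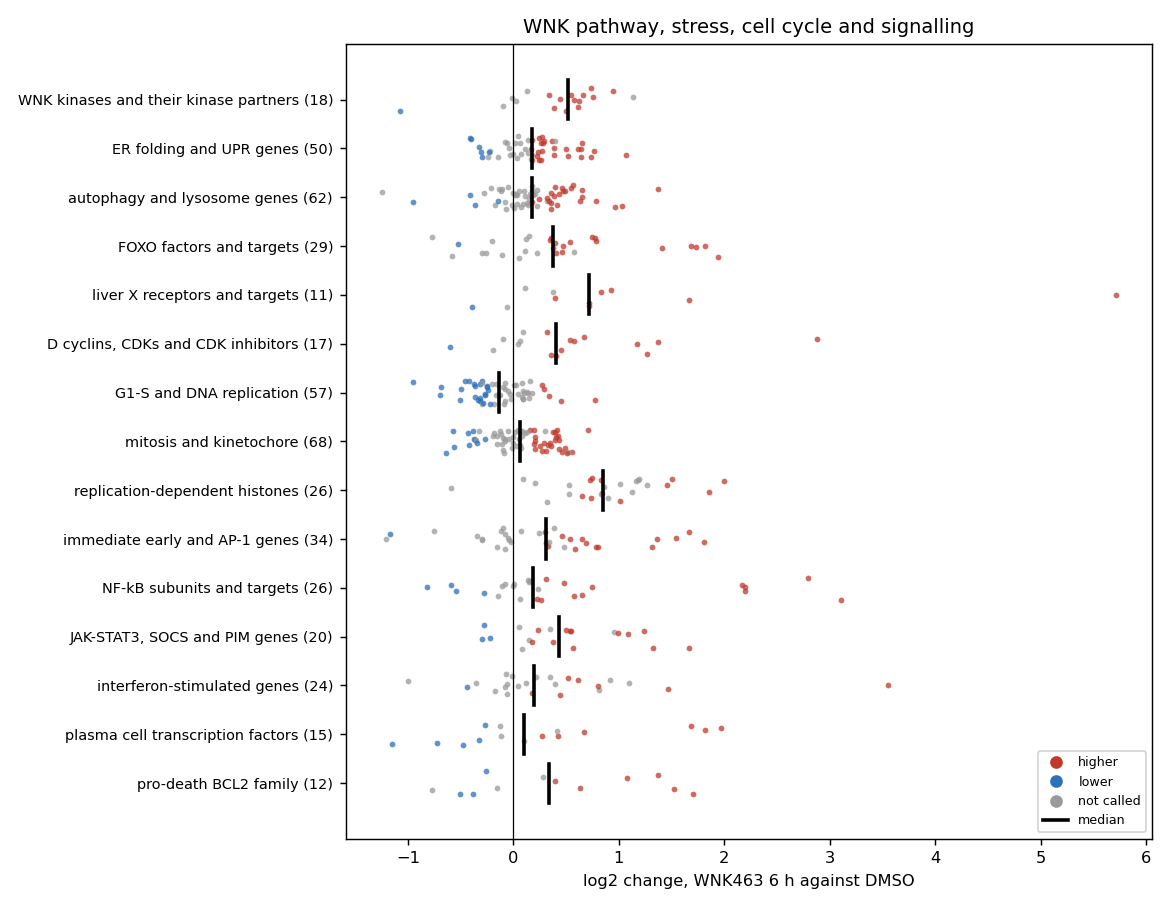
Log2 change at 6 h against DMSO for each tested member of lists for the WNK pathway, ER, lysosome, FOXO, sterol sensing, cell cycle, signalling and cell death, drawn as in the plot of growth lists. The liver X receptor list (median 0.72) and histones (median 0.85) lie mostly above 0, and the replication list mostly below (median -0.14).

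Among signalling genes, immediate early and AP-1 genes gave 15 of 34 higher and 1 lower (median 0.30). RGS1, a brake on G-protein signalling in lymphocytes, was at 62.5 and 64.8 CPM in DMSO and 191 and 179 CPM at 6 h (log2 change 1.54 ± 0.0748 SE, adjusted p = 3.38e-21). FOSL2, an AP-1 subunit, rose from 5.58 and 5.09 to 20.0 and 17.3 CPM, while FOS (log2 change -0.16) and FOSL1 (log2 change -0.12) were not called. BTG1, an antiproliferative gene, rose from 34.8 and 31.2 to 82.0 and 81.5 CPM. MAFK, a small MAF factor, was the one that fell (65.2 and 47.6 CPM in DMSO and 24.9 and 25.2 CPM at 6 h), with 18.1% of its exonic length shared with TMEM184A. Feedback genes of the ERK pathway gave 7 higher and 3 lower of 19 (36.8% and 15.8%), against 18.7% and 19.0% of all tested genes. DUSP10, a phosphatase of the stress kinases, rose from 7.63 and 7.50 to 24.7 and 25.7 CPM, and DUSP2, a phosphatase of the ERK and p38 kinases, fell from 27.1 and 22.7 to 11.6 and 7.88 CPM. PHLDA1, induced by growth factors, was at 23.3 and 22.1 CPM in DMSO and 95.3 and 86.1 CPM at 6 h (log2 change 2.00 ± 0.0969 SE, adjusted p = 3.21e-21), with 16.5% of its exonic length shared with an antisense gene.

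Of 26 NF-kB genes 12 were higher and 4 lower (46.2% and 15.4%), against 18.7% and 19.0% of all tested genes. The 5 largest rises of the list were those of chemokine genes. CXCL10 was low, at 0.111 and 0.189 CPM in DMSO and 1.18 and 1.53 CPM at 6 h (log2 change 3.11, adjusted p = 0.00132), as was CCL4 (log2 change 2.20), both named after their values were seen. With under 10 counts in each DMSO library, CXCL10 passed the filter only through its 6 h libraries, which fixed its direction in advance. CXCL8, which attracts neutrophils, was at 3.54 and 4.76 CPM in DMSO and 20.2 and 17.2 CPM at 6 h (log2 change 2.17 ± 0.196 SE, adjusted p = 2.17e-12), and CCL5 at 4.20 and 3.54 CPM in DMSO and 17.7 and 17.7 CPM at 6 h (log2 change 2.20 ± 0.203 SE, adjusted p = 3.50e-12). CCL3 was at 2.16 and 0.943 CPM in DMSO and 10.8 and 10.2 CPM at 6 h, with 74.6% of its exonic length shared with CCL3-AS1 and near-identical copies elsewhere, so its level is uncertain, and its log2 change of 2.79 was 3.47 without DMSO replicate 1. The subunits NFKB1 (log2 change 0.16) and RELA (log2 change -0.11) and the feedback inhibitor NFKBIA (log2 change 0.06) were not called. TRAF3, a brake on the alternative pathway, fell from 221 and 224 to 152 and 153 CPM. MAP3K14, the kinase it restrains, fell from 54.8 and 56.0 to 31.7 and 31.2 CPM. In cytokine signalling 12 of 20 JAK-STAT genes were higher and 3 lower (median 0.44). The cytokine gene IL10 rose from 36.0 and 40.4 to 119 and 124 CPM (log2 change 1.67 ± 0.0902 SE, adjusted p = 1.57e-19). IL6ST, the shared receptor chain of IL-6, rose from 399 and 445 to 623 and 600.3 CPM. STAT3, the factor that this receptor activates, rose from 142 and 128 to 192 and 189.7 CPM. The feedback inhibitor SOCS2 was at 18.2 and 17.0 CPM in DMSO and 36.4 and 33.4 CPM at 6 h.

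TGF-beta genes gave 12 higher and 3 lower of 23 (5 higher without 6 h replicate 2), with the receptor TGFBR1 at 17.3 and 20.5 CPM in DMSO and 37.5 and 33.2 CPM at 6 h. WNT pathway genes split into 14 higher and 10 lower of 35 (9 higher without 6 h replicate 2). Both WNT10 ligands fell, WNT10A from 40.0 and 38.4 to 20.7 and 17.6 CPM, and CTNNB1, the beta-catenin gene, rose from 208 and 229 to 306 and 285 CPM beside its positive regulator FRAT1 (5.14 and 4.95 CPM in DMSO and 14.7 and 15.2 CPM at 6 h) and the receptor FZD7 (7.24 and 7.54 CPM in DMSO and 16.0 and 16.8 CPM at 6 h). Interferon-stimulated genes gave 7 higher and 1 lower of 24 tested (29.2% and 4.17%). The TGF-beta list gave 52.2% and 13.0% and the WNT list 40% and 28.6%, against 18.7% and 19.0% of all tested genes. STAT2, a factor of the interferon response, was at 18.2 and 15.2 CPM in DMSO and 47.1 and 45.1 CPM at 6 h (log2 change 1.47 ± 0.128 SE, adjusted p = 7.13e-13), whereas ISG15, a ubiquitin-like protein gene, was not called (log2 change -0.06).

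Plasma cell identity genes changed in both directions. Of 15 factors 6 rose and 5 fell. IRF4, on which myeloma cells depend, was at 685 and 716 CPM in DMSO and 574 and 585 CPM at 6 h (log2 change -0.27 ± 0.0541 SE, adjusted p = 6.57e-05), and POU2AF1, a coactivator of antibody genes, at 667 and 661 CPM in DMSO and 474 and 480.4 CPM at 6 h (log2 change -0.48 ± 0.0543 SE, adjusted p = 9.73e-10). PRDM1, the BLIMP1 repressor that fixes plasma cell fate, rose from 268 and 284 to 362 and 378 CPM (log2 change 0.42 ± 0.0605 SE, adjusted p = 1.91e-07). All of these stayed near their vehicle level, within 1.5-fold, while their groups did not overlap. MAF, the driver of 1 myeloma class, was at 569 and 564 CPM in DMSO and 544 and 528 CPM at 6 h and was not called (log2 change -0.08 ± 0.0542 SE, adjusted p = 0.253), while of 11 genes linked to it 6 were higher and 0 lower. CCR1, a chemokine receptor of that list, rose from 106 and 108 to 278 and 282 CPM (log2 change 1.39 ± 0.0684 SE, adjusted p = 5.02e-21). Surface genes gave 8 higher and 2 lower of 25 (32% and 8%, against 18.7% and 19.0% of all tested genes). CD44, a hyaluronan receptor, was at 188 and 182 CPM in DMSO and 290.2 and 283 CPM at 6 h, and CD28, a costimulatory receptor, at 94.7 and 104 CPM in DMSO and 129 and 133 CPM at 6 h. Of antigens used as therapy targets, TNFRSF17 (BCMA) was at 28.6 and 31.9 CPM in DMSO and 34.1 and 34.9 CPM at 6 h and CD38 at 18.5 and 15.5 CPM in DMSO and 16.9 and 20.8 CPM at 6 h, neither called, and SLAMF7, named after its value was seen, rose from 2.10 and 2.78 to 5.31 and 5.60 CPM (log2 change 1.15, adjusted p = 0.00339). IGKC, the kappa light chain constant gene, was at 3496 and 3238 CPM in DMSO and 3561 and 3721 CPM at 6 h, and its call (adjusted p = 0.0458) was lost with DESeq2 (adjusted p = 0.114) and with 5 of the 6 libraries left out in turn (up to adjusted p = 0.406, without 6 h replicate 2).

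Some regulators of cell death rose on both sides. The pro-survival genes BCL2 (162 and 175 CPM in DMSO and 234 and 225 CPM at 6 h) and MCL1 (561 and 573 CPM in DMSO and 713 and 689 CPM at 6 h) were higher. The pro-death genes BMF (37.6 and 35.2 CPM in DMSO and 104 and 104 CPM at 6 h) and BBC3 (5.97 and 3.82 CPM in DMSO and 13.5 and 11.6 CPM at 6 h) were higher as well, and BID fell from 56.9 and 60.8 to 38.4 and 44.6 CPM. Over all tested genes 18.7% were higher and 19.0% lower. Of 12 pro-death genes 6 rose and 3 fell (50% and 25%). Of 22 caspase, caspase-inhibitor and necroptosis genes 7 rose and 5 fell (31.8% and 22.7%). Without DMSO replicate 1, 6 h replicate 1 or 6 h replicate 2, 2, 2 and 3 of the last list were called higher. BMF changed by 1.52 ± 0.0916 SE on the log2 scale.

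RNA processing and nuclear transport genes were lower more often than higher. SR proteins, hnRNPs and their kinases gave 20 lower and 4 higher of 42, with HNRNPH1, a splicing regulator, at 641 and 615 CPM in DMSO and 366 and 382 CPM at 6 h. SRRM2, of nuclear speckles, was at 849.7 and 826 CPM in DMSO and 566 and 575 CPM at 6 h. Exportins and nuclear pore genes gave 24 lower and 4 higher of 48. XPO6, which exports actin, was at 302 and 314 CPM in DMSO and 146 and 148 CPM at 6 h (log2 change -1.06 ± 0.0651 SE, adjusted p = 1.03e-17) and XPO5, which exports microRNA precursors, at 324 and 337 CPM in DMSO and 206 and 197 CPM at 6 h. The nuclear noncoding RNAs NEAT1 (449 and 402 CPM in DMSO and 285 and 274 CPM at 6 h) and MALAT1 (191 and 149 CPM in DMSO and 105 and 93.2 CPM at 6 h) fell. HEXIM1, an inhibitor of the elongation kinase P-TEFb, rose from 66.7 and 66.1 to 119.8 and 128 CPM. Of 18 P-TEFb and BET genes 7 were higher and 3 lower (38.9% and 16.7%). Zinc-finger genes named ZNF gave 95 lower and 54 higher of 413 (median -0.13), and antisense genes 44 lower and 37 higher of 451. These are 23.0% lower and 13.1% higher for ZNF genes and 9.76% and 8.20% for antisense genes, against 19.0% and 18.7% of all tested genes. Without 6 h replicates 1 and 2, 52 and 62 ZNF genes were lower, and without DMSO replicate 1 or 6 h replicate 1, 27 antisense genes. Among antisense genes reads from the partner gene cannot be told apart.

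Energy and redox genes were mixed. Glycolysis and hypoxia genes gave 15 lower and 10 higher of 37 (40.5% and 27.0%). The NRF2 and NADPH list gave 36.4% and 18.2%, against 19.0% and 18.7% of all tested genes. LDHA, lactate dehydrogenase, was at 1560.2 and 1715 CPM in DMSO and 1338 and 1354 CPM at 6 h and ENO1, enolase, at 4972 and 4709.6 CPM in DMSO and 4086 and 4184 CPM at 6 h, and the glucose carrier SLC2A1 rose from 123 and 123 to 161 and 162 CPM. Of 22 NRF2 and NADPH genes 8 were lower and 4 higher (5 lower without 6 h replicate 2), with TXNRD1, thioredoxin reductase, at 595 and 586 CPM in DMSO and 372 and 379 CPM at 6 h (log2 change -0.65 ± 0.0557 SE, adjusted p = 3.55e-13).

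Genes nearly silent in the vehicle were also read by count. CCN3, a secreted matrix protein gene, had no count in DMSO and 28 and 22 at 6 h, at least 16.8-fold higher against a floor of 3 counts over the 2 DMSO libraries together. CD80, a costimulatory ligand, had no count in DMSO and 13 and 10 at 6 h, at least 7.71-fold higher. KLRB1, a receptor of NK and some T cells, had no count in DMSO and 16 and 14 at 6 h, at least 10.1-fold higher. In these 3 genes every count came from the treated libraries. INSM1, a zinc-finger factor of neuroendocrine cells, had 3 and 0 counts in DMSO and 40 and 52 at 6 h, a ratio of 30.8 (95% counting interval 10.2 to 152). GZMB, the cytotoxic protease granzyme B, had 0 and 1 counts in DMSO and 16 and 17 at 6 h, a ratio of 33.2 (5.56 to 1350.4). The fitted log2 change moved without DMSO replicates 1 and 2, from 4.82 to 8.59 and 3.78 for INSM1 and from 4.75 to 4.0 and 7.07 for GZMB. Of the T and NK cell markers, TRAC was called higher as well, at 2.43 and 1.51 CPM in DMSO and 3.25 and 4.68 CPM at 6 h, a call lost with DESeq2 (adjusted p = 0.0758) and without DMSO replicate 2 or 6 h replicate 2 (adjusted p = 0.254 and 0.324), and CD3D, CD3G, GNLY and KLRD1 had no count in the same 4 libraries. CCN3, CD80, KLRB1, INSM1 and GZMB were named after their values were seen, from 37 genes called higher with at most 3 counts in DMSO. A gene with under 10 counts in each DMSO library passes the filter only if both 6 h libraries hold at least 10. The filter thus fixed the direction of these genes in advance, and their ratios are descriptions only.

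Length and level went with the calls. Among the 9089 genes of at least 10 CPM, the shortest 2274 by exonic length gave 17.4% higher and 29.3% lower, and the longest 2272 gave 29.9% higher and 23.6% lower. The share called grew with level, from 37.7% of all tested genes to 51.0% of those of at least 10 CPM and 61.4% of those of at least 100 CPM. The part of length and level in the list counts above was not tested.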

How the data were processed

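The deposited table held fragment counts for 60728 genes, counted by the authors with featureCounts 2.0.0 on GENCODE 34, without strand, for pairs with both ends mapped, not chimeric and of a mapping quality of at least 20, per the file headers. Trimmomatic and STAR on hg38 are named per the submitters' processing notes, with versions not given in the sources used here. Counts without strand cannot tell a gene from one that overlaps it on the other strand, and the quality minimum can lower the counts of near-identical copies. Totals were 18013790 and 21300013 in DMSO and 18959025 and 19264703 at 6 h. A count of 0 therefore allows up to 0.141 to 0.167 CPM (3 counts, covering counting error only).

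All 6 libraries entered 1 quasi-likelihood fit with a mean per group (edgeR 4.0.16 in R 4.3.3, TMM factors 0.974 to 1.03), contrasting 6 h with DMSO, and p-values were adjusted by Benjamini-Hochberg over the 15209 tested genes. A standard error is the size of the log2 change divided by the square root of F. The fit was also run on simulated counts in which far fewer genes changed than were called here. That run cannot show how scaling or error control behave in these data. Gene types came from GENCODE 29, and promoters from RefSeq on GRCh38.p14.

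Named genes were the 15 largest log2 rises and falls and the 10 largest CPM rises and falls. These came from called genes of at least 4 CPM on average with groups apart. Also named were the 6 called members of each list with the smallest adjusted p at any level, and a set of pathway genes. Some other names are said to be chosen after their values were seen. Others, such as EIF4A2, DOHH and list members not called, were named outside this rule without such a statement. The members and the 66 gene lists were chosen with earlier results of these data known. A few genes are not reported here. Alternatives were DESeq2 1.42.0, limma 3.58.1 (voom), other scalings, filters and samples, a replicate term, and an adjusted p under 0.01.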

Additional observations from a re-analysis of the deposited data

How the results depend on the processing

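The count of 5731 called genes ranged from 5309 to 5747 over other tests, scalings, filters and samples, except for 4981 in DESeq2. It was 4124 at an adjusted p under 0.01, and ran from 4001 (without 6 h replicate 1) to 5524 with 1 library left out, where a lone library is assumed to vary like the other groups. Of the 220 called genes described with a log2 change, 205 kept the call under each of the 16 alternatives and 0 changed direction. Of 880 list counts, 847 stayed within 1.5 times; the cause of the others was not tested. Scaling by library size alone put the median log2 change at 0.03, against 0.00 with TMM, and 54.6% of calls were then higher.

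The DMSO and 6 h groups share only replicate numbers, whose deviations correlated at -0.028. A fit with the replicate block called 5728 genes, 5632 of them also called without it, and no pair of libraries was crossed.

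Cytosolic ribosomal proteins called lower (35) numbered 22 in DESeq2, 21 with library size alone and 17 at an adjusted p under 0.01, and 10 to 53 with 1 library left out. Sodium pump and sodium-proton exchange genes called higher (2) numbered 5 with library size alone. The stricter threshold gave 9 WNT and beta-catenin genes higher (of 14), 20 antisense genes lower (of 44), 3 caspase, IAP and necroptosis genes higher (of 7), 10 genes of respiratory complexes II to V lower (of 16), 1 sodium pump or exchange gene higher (of 2) and 56 ZNF genes lower (of 95). Leaving out each library in turn gave 5 to 10 NRF2 and NADPH genes lower, 5 to 12 TGF-beta, SMAD and ID genes higher, 9 to 15 WNT genes higher, 27 to 45 antisense genes lower, 2 to 9 caspase-list genes higher and 33 to 45 mitochondrial ribosomal protein genes lower. The same ranges were 17 to 28 for mitosis genes higher, 9 to 17 for proteasome genes lower, 5 to 16 for complex I lower, 9 to 21 for complexes II to V lower, 1 to 3 for sodium pump and exchange genes higher and 52 to 93 for ZNF genes lower. In each of these ranges the lowest count came without a 6 h replicate, and for the antisense, complex I and caspase lists also without DMSO replicate 1.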
